A study of Mus musculus with 14 samples.

Results

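The heat shock proteins and chaperones of mouse brain were read as 84 genes of the 43346 in the count table. Members were chosen by gene symbol: the Hspa, Hspb, Hspd, Hspe and Hsph genes, the Hsp90 genes, the Dnaja, Dnajb and Dnajc genes (J proteins, with 1 symbol left out), the subunits of the cytosolic chaperonin TRiC/CCT (Cct2 to Cct8 and Tcp1) and Bag1 to Bag6. The rule used no measured value, though it was set with earlier results of these data known. RNA was sequenced from brain cross-sections, holding hippocampal and cortical tissue, of 14 female mice of the strain label C57BL/6;SJL-Tg. NTG mice (wild type; non-transgenic, n = 4) and APP/PS1 mice (labelled APP/PS1 +/+, n = 5) drank water with 0.1% PEG, and CP2-treated APP/PS1 mice (n = 5) drank the same vehicle with CP2 at 25 mg/kg/day. All mice were 23 months old, and treatment ran for 14 months from an age of 9 months. APP/PS1 mice carry human APP and PS1 transgenes with familial Alzheimer's disease mutations and develop amyloid plaques, and CP2 is a small molecule that mildly inhibits mitochondrial complex I. NTG mice given CP2 were not analysed here.

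Chaperones bind unfolded or partly folded proteins and keep them from aggregating. HSP70 proteins do this in cycles of ATP hydrolysis: J proteins deliver the client and start hydrolysis, while HSP110 and BAG proteins release the nucleotide so that the client can leave. HSP90 finishes the folding of kinases and receptors, TRiC folds actin and tubulin inside a closed ring, HSP60 with its lid HSP10 does the same in mitochondria, and small HSPs hold unfolded proteins without ATP. Misfolded protein in the cytosol frees the transcription factor HSF1 to induce many of these genes through heat shock elements, and misfolded protein in the endoplasmic reticulum (ER) induces the ER chaperones through the unfolded protein response. In the brain, HSC70 (Hspa8) with auxilin (Dnajc6) and cysteine string protein (Dnajc5) also uncoats clathrin vesicles and maintains synaptic proteins.

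Promoters of 69 of the 84 members, from 250 bases before to 50 after the RefSeq start on GRCm38.p6, were searched on both strands for the letters of these elements, since the stress response is read through them. A heat shock element of 3 units, GAA, TTC and GAA with 2 bases between them, was found in 0.603% of 32851 promoters, or for 0.662% of the 27025 genes they belong to, and for 4 members, Dnajb6, Hspd1, Hspe1 and Hsph1. The letters GAANNTTC, which lie within that element, were found in 7.86% of promoters, or for 9.04% of genes, and for 15 of the 69 members. The other phase, TTCNNGAA, was found in 8.52% of promoters, or for 9.6% of genes, and for 8 members. The ER stress element, CCAAT and CCACG with 9 bases between them, was found in 0.119% of promoters, or for 0.137% of genes, and for 3 members, Dnajc3, Hsp90b1 and Hspa5. A match of letters is a description and not a measured binding site. The windows below are written 5′ to 3′ on the strand of the gene, with the matched letters in capitals. The first 3 show the heat shock element, which in Hspd1 and Hspe1 is 1 stretch of DNA upstream of both RefSeq starts, read in opposite directions. The windows of Hspa1a and Hspa1b, near-identical gene copies, are identical. Those of Hspb1 and Hspb6 belong to small HSPs described further on.
Hspd1, chr1:55088053-55088082, minus strand: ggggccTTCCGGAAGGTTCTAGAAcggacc
Hspe1, chr1:55088053-55088082, plus strand: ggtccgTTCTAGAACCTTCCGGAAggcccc
Dnajb6, chr5:29735843-29735872, plus strand: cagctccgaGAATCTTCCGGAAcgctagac
Hspa1a, chr17:34972227-34972286, minus strand: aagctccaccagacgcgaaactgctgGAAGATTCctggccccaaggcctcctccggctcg
Hspa1b, chr17:34959309-34959368, minus strand: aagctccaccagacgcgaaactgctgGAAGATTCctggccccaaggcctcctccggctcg
Hspb1, chr5:135887786-135887845, plus strand: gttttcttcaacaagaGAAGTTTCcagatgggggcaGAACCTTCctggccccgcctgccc
Hspb6, chr7:30553155-30553214, plus strand: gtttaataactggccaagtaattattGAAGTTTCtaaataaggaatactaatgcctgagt
The 3 windows with the ER stress element follow, with that of Hsp90b1 holding it in the opposite orientation. The Hsp90b1 promoter has another match, in the forward orientation, at bases -212 to -194 from the start, outside the window shown.
Hspa5, chr2:34772019-34772048, plus strand: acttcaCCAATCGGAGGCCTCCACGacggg
Dnajc3, chr14:118937806-118937865, plus strand: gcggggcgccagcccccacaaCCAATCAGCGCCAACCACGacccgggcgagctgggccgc
Hsp90b1, chr10:86705513-86705572, minus strand: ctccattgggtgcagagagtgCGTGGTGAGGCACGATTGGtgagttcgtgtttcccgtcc

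Library totals ran from 70548781 to 106235625 counts, of which members took 0.845 to 0.933% in each mouse. Values per mouse are given as CPM, counts scaled to a common library size with TMM factors, which correct for differences in library composition. Yam1 and AY036118, which are ribosomal RNA-like, took 2.40 to 7.50% of counts. Neuronal and oligodendrocyte markers were abundant in all mice, with 10-gene sums of at least 6818 and 5030 CPM. Dentate gyrus markers summed to 327 to 371 CPM in NTG, 225 to 313 CPM in APP/PS1 and 289 to 309 CPM in CP2-treated mice. For these markers all NTG mice lay above all mice of the other groups. Mouse 16, a vehicle-treated APP/PS1 mouse, stood apart with a sum of 2579 CPM for striatum markers, against 209 to 395 CPM in the other 13 mice, and several values are given with and without it. Markers of glia differed between groups, and 10 microglia markers summed to 426 to 448 CPM in NTG, 835 to 1271 CPM in APP/PS1 and 734 to 1060.3 CPM in CP2-treated mice. The reactive astrocyte markers summed to 394 to 605, 1187 to 3085 and 1427 to 2456 CPM. The part of the glia and dentate gyrus differences in the members' values was not tested. Reads were counted on every gene they overlapped, and 37 of the 84 members overlap another gene of the table. In bulk tissue, fewer cells of a type and less RNA per cell cannot be told apart.

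Of the 84 members, 74 passed the filter on low values (over 1 CPM in every mouse of at least 1 group compared) and were tested in each comparison. The other 10 were Cct6b, Dnajb3, Dnajb7, Dnajb8, Dnajb13, Dnajc22, Hspb2, Hspb3, Hspb7 and Hspb9. Dnajb8 had counts in 2 of the 14 mice only, 2 counts in mouse 17 and 6 in mouse 18. Dnajb13 and Hspb3 reached the highest counts of these 10, at most 138 and 105 in a mouse. The tested members covered all 11 HSP70, 3 HSP110, 3 HSP90, 6 BAG and 4 class A J proteins and both HSP60/HSP10 genes, but 9 of 13 class B and 24 of 25 class C J proteins, 8 of 9 TRiC genes and 4 of 8 small HSPs.

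On a scale per length (RPKM as deposited), the cytosolic HSP90 gene Hsp90ab1 was the most abundant member in NTG mice at 325 ± 21.9 RPKM (SD, n = 4), which was 17.5% of the RPKM of all members together. Hsp90aa1, its inducible counterpart, followed at 115 ± 7.97 RPKM and Hspa8, the constitutive HSP70, at 111 ± 11.8 RPKM, so these neighbours lay within their spread. Hsp90b1, the HSP90 of the ER, stood at 62.5 ± 6.26 RPKM and Cct6a, a TRiC subunit, at 53.2 ± 2.56 RPKM. The order by RPKM depends on the length listed for each gene, such as 1599 bases for Cct6a and 6370 for the TRiC gene Cct3. Over all 14 mice, Cct6a and Cct3 averaged 105 and 108 CPM, yet Cct3 stood at 13.7 RPKM in NTG mice. Hspa5, the ER HSP70 also called BiP, stood at 51.5 ± 8.03 RPKM, and Dnajc6 and Dnajc5, the J proteins of clathrin vesicles and synapses, at 49.0 ± 3.97 and 44.2 ± 2.64 RPKM. In all, 46 members reached 10 RPKM and 11 stayed below 1 RPKM. The stress-inducible HSP70 genes Hspa1a and Hspa1b were low at 2.89 ± 0.0792 and 3.39 ± 0.486 RPKM, as was the inducible small HSP Hspb1 at 1.91 ± 0.244 RPKM. The order of the first 4 genes was the same in APP/PS1 mice, where Hsp90ab1 stood at 351 ± 20.9 RPKM (n = 5).

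**Figure D1:**
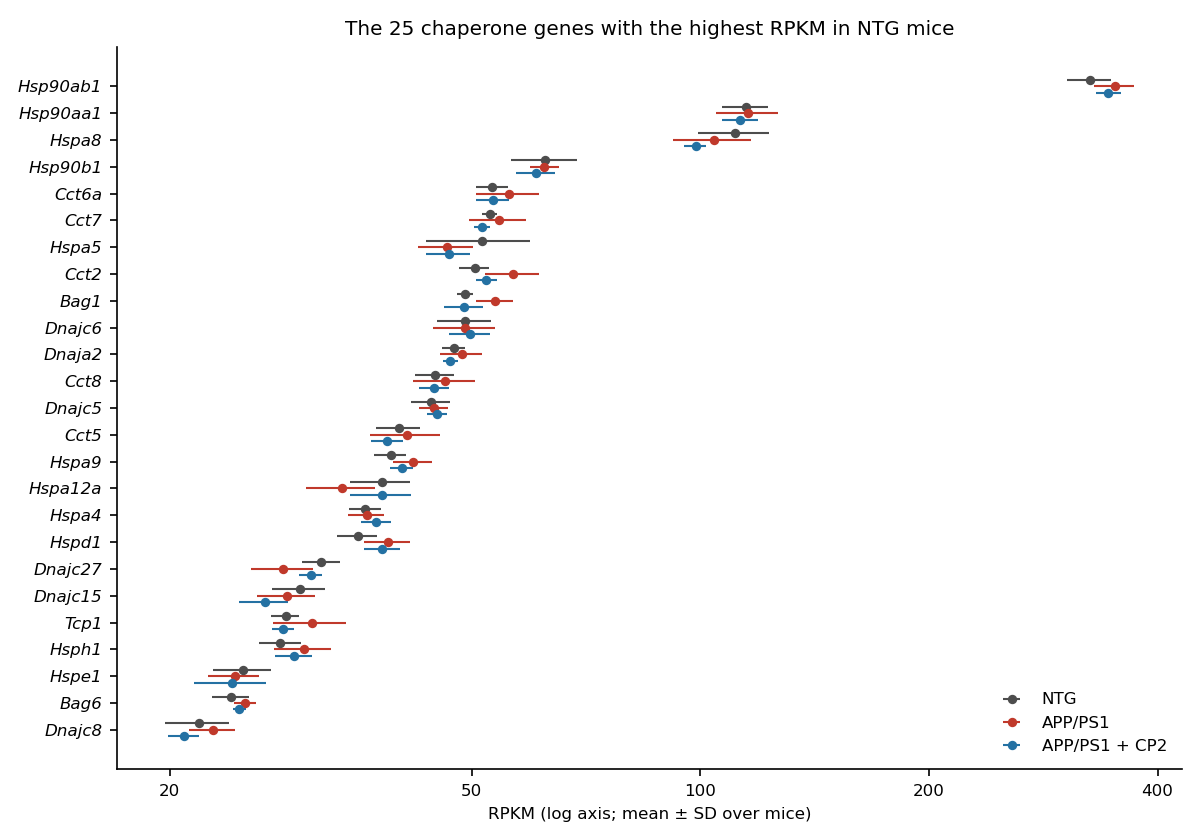
The plot shows the 25 members with the highest RPKM in NTG mice, as mean ± SD on a log axis for NTG (n = 4), APP/PS1 (n = 5) and CP2-treated APP/PS1 mice (n = 5). Hsp90ab1 stands alone at 325 to 351 RPKM.

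The coefficient of variation of the CPM over all 14 mice had a median of 6.33% over the 74 tested members and of 9.64% over the 16521 genes tested in any comparison, as a description with no test and with no matching on abundance. It was lowest for Dnajc14 at 2.84%. It was highest for Hspb8, a small HSP that works with Bag3 in clearing aggregates, at 28.9%, followed by Hspa1b at 23.8%, Bag3 at 22.7% and Hspb6 at 21.96%.

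The first comparison asks which chaperone genes differ between APP/PS1 and NTG mice at 23 months. In edgeR's quasi-likelihood test, adjusted by Benjamini-Hochberg over all 16417 genes tested, 0 of 74 members passed an adjusted p of 0.05, where 5.68% of all genes did (4.34% higher and 1.34% lower). At an unadjusted p under 0.05, the threshold the study used, 11 members (14.9%) passed against 18.7% of all genes. Of these, 5 (6.76%) were higher in APP/PS1 mice, against 10.6% of all genes, and 6 (8.11%) lower, against 8.05%. DESeq2 called 8 members (10.8%) at an adjusted p of 0.05, close to its 10.2% over all genes: Dnajc10, Dnajc12, Dnajc13, Dnajc27, Hspa12b, Hspa1b, Hspa4l and Hspb6. In the edgeR fit 1 member passed without mouse 16 (8.99% of all genes) or without mouse 17 (4.66%). With the ribosomal RNA-like share as a covariate, chosen after the data were seen, 4 members passed unadjusted (5.41%, against 14.8% of all genes). The median log2 fold change was -0.02 over the 74 members and -0.0042 over all genes tested. Differences over 0.2 on the log2 scale, in either direction, were seen for 16.2% of members and 23.5% of all genes. For 51 of the 74 members the 95% interval of the log2 fold change lay within 0.3 of 0.

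**Figure D2:**
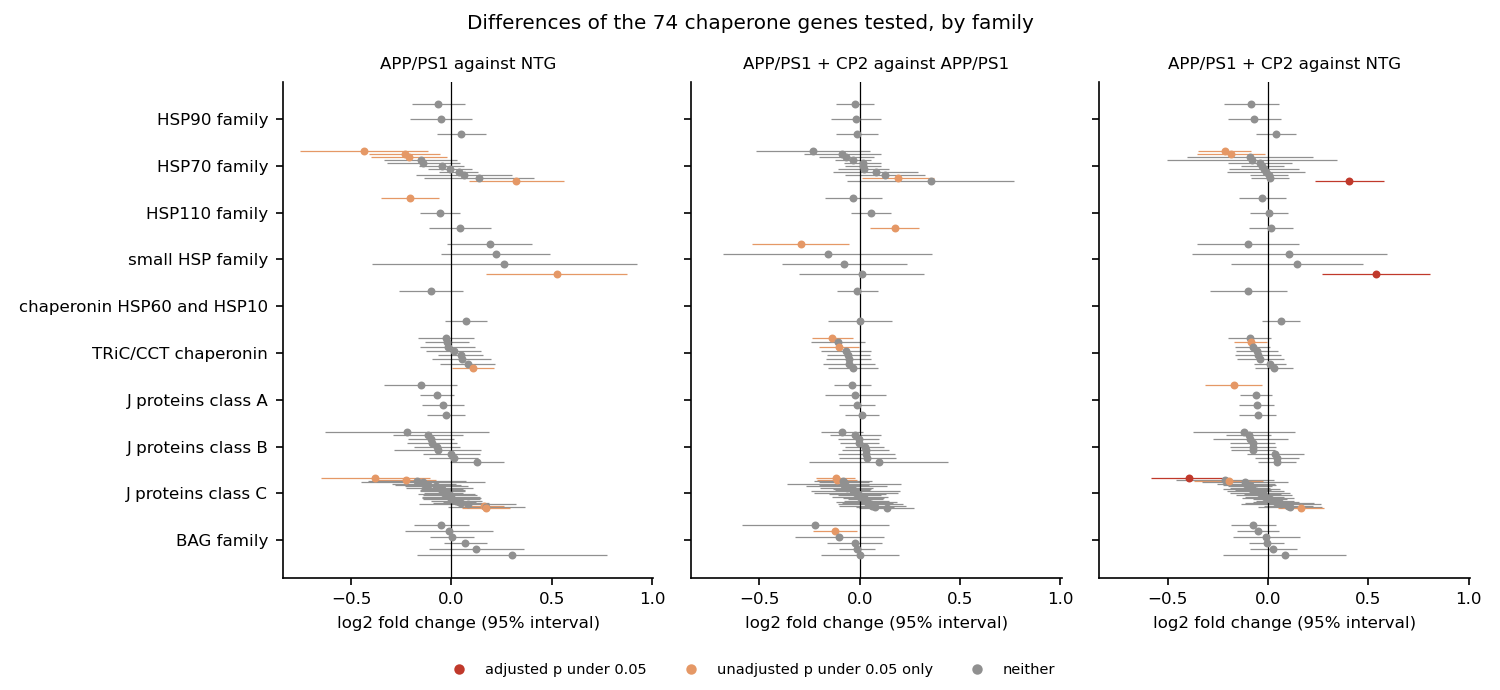
Each point is the log2 fold change of 1 of the 74 tested members, with its 95% interval, in rows by family, for the 3 comparisons. Most points lie within 0.2 of 0, the small HSPs sit right of 0 in the left panel, and the 8 TRiC genes sit left of 0 in the middle panel.

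The most abundant members gave narrow intervals. Hsp90ab1 was at 1215 ± 45.6 CPM in NTG mice (n = 4) and 1257 ± 61.7 CPM in APP/PS1 mice (n = 5), a log2 fold change of 0.05 with a 95% interval from -0.07 to 0.17. Hsp90aa1 gave -0.05 (interval -0.21 to 0.10) and Hsp90b1 -0.06 (interval -0.20 to 0.07).

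Among HSP70 genes, Hspa8 measured 528, 604, 533 and 634 CPM in NTG mice and 503, 594, 509, 467 and 511 CPM in APP/PS1 mice. The groups overlapped through mouse 17, and the log2 fold change was -0.15 (SE 0.08, adjusted p = 0.36 by edgeR's quasi-likelihood test), or -0.09 without mouse 10. Hspa5 (BiP) measured 279, 257, 233 and 313 CPM in NTG mice and 259, 240, 227, 222 and 222 CPM in APP/PS1 mice, a log2 fold change of -0.21 (SE 0.09, unadjusted p = 0.034 and adjusted p = 0.22 in the edgeR fit), or -0.12 without mouse 10 (edgeR adjusted p = 0.54). Both genes of the stress-inducible pair had a lower point estimate in APP/PS1 mice. Hspa1b measured 12.7, 14.2, 10.2 and 10.4 CPM in NTG mice and 6.74, 10.6, 8.06, 9.43 and 9.04 CPM in APP/PS1 mice, so only mouse 17 reached the NTG range. Its log2 fold change was -0.44 (SE 0.14, edgeR unadjusted p = 0.012, adjusted p = 0.12) and -0.36 without mouse 16. Hspa1a, the near-identical copy, gave -0.14 (SE 0.08, edgeR adjusted p = 0.41), and since reads may be split between the copies the values of each are uncertain.

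The 2 atypical HSP70 genes had point estimates of opposite sign. Hspa12b, which is enriched in endothelial cells, measured 7.09, 6.78, 7.59 and 6.78 CPM in NTG mice and 7.58, 8.46, 10.3, 9.87 and 7.91 CPM in APP/PS1 mice. Mouse 16 lay at the upper end of the NTG range and the other 4 APP/PS1 mice above it. The log2 fold change was 0.32 (SE 0.11, edgeR adjusted p = 0.12), and 0.37 without mouse 16 (edgeR adjusted p = 0.046). Hspa12a measured 250, 266, 275 and 294 CPM in NTG mice and 198, 248, 231, 221 and 257 CPM in APP/PS1 mice, a log2 fold change of -0.23 (SE 0.08, edgeR adjusted p = 0.14), or -0.19 without mouse 16. Hspa4l, an HSP110 protein that exchanges nucleotide on HSP70, gave -0.21 (SE 0.06, edgeR adjusted p = 0.11), or -0.17 without mouse 16, the lowest APP/PS1 mouse for it, while its relative Hsph1 gave 0.04 (SE 0.07).

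All 4 tested small HSPs had a higher point estimate in APP/PS1 mice, with a median log2 fold change of 0.24, and none passed the adjusted threshold. Of all 16417 genes tested, 8009 were higher. The median was 0.40 without mouse 7 and 0.39 with limma-voom, but 0.18 without mouse 9 and 0.19 without mouse 19. Hspb11, counted here by symbol only, gave 0.19 (SE 0.09). Hspb6 (HSP20), known from smooth muscle, measured 4.65, 4.40, 3.47 and 3.99 CPM in NTG mice and 5.13, 4.39, 6.14, 7.28 and 6.74 CPM in APP/PS1 mice. All APP/PS1 mice but mouse 17 were above the highest NTG mouse, and the log2 fold change was 0.52 (SE 0.16, edgeR adjusted p = 0.093). Without mouse 17 it was 0.61 (edgeR adjusted p = 0.034). Hspb1 (HSP27) gave 0.22 (SE 0.12) and Hspb8 0.26 (SE 0.30). Hspb1 was at 0.14 without mouse 19. Hspb8 was at 0.53 without mouse 7 and 0.43 without mouse 16, but at 0.12 without mouse 10 and 0.13 without mouse 18. Among markers of vessel cells, the 10 endothelial markers summed to 258 to 275 CPM in NTG mice and 276 to 370 CPM in APP/PS1 mice, with 9 of 10 higher and 1 passing the adjusted threshold. The 10 mural cell markers (smooth muscle cells and pericytes) summed to 158 to 184 and 201 to 308 CPM, with 10 of 10 higher and 0 passing. Their part in the Hspa12b and Hspb6 values was not tested.

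Among J proteins, class A gave a lower point estimate for 4 of 4 genes (median -0.06), class B for 7 of 9 (median -0.07) and class C for 16 of 24 (median -0.03). Of all 16417 genes tested, 8408 were lower. With upper-quartile factors class B was lower for 6 of 9 genes and class C for 13 of 24. Groups did not overlap for 3 of the 74 members (4.05%, against 9.97% of all genes tested, 6.15% higher and 3.82% lower), and all 3 were class C. Dnajc13 (RME-8), which acts on endosomes, measured 75.2, 70.5, 71.1 and 76.1 CPM in NTG mice and 85.8, 81.2, 79.1, 79.2 and 84.1 CPM in APP/PS1 mice. The log2 fold change of 0.16 (SE 0.04, edgeR adjusted p = 0.068) was 1.12-fold, and it was 0.14 without mouse 16, the highest APP/PS1 mouse. Dnajc10 (ERdj5), a disulfide reductase of the ER, measured 99.0, 102.22, 91.1 and 99.6 CPM in NTG mice and 110.1, 119, 110.2, 102.23 and 111 CPM in APP/PS1 mice, so that mouse 8 and mouse 19 almost touched. Its log2 fold change was 0.17 (SE 0.05, edgeR adjusted p = 0.10). Dnajc27, a small GTPase with a J domain, was lower in APP/PS1 mice at 141, 147, 175, 168 and 162 CPM, against 182, 187, 181 and 194 CPM in NTG mice. Its log2 fold change was -0.23 (SE 0.07, edgeR adjusted p = 0.088), and -0.19 without mouse 16, which was the lowest.

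Dnajc12, a J protein that serves the aromatic amino acid hydroxylases, measured 18.5, 17.2, 14.7 and 14.2 CPM in NTG mice and 10.1, 12.5, 14.5, 13.9 and 11.1 CPM in APP/PS1 mice. The groups overlapped by 1 APP/PS1 mouse, and the log2 fold change was -0.38 (SE 0.12, edgeR adjusted p = 0.12), or -0.32 without mouse 16, the lowest APP/PS1 mouse. The J proteins fixed by role gave small values: Dnajb1, the main stress-induced partner of HSP70, -0.00096 (SE 0.06), Dnaja1 -0.04 (SE 0.05), Dnajb2 -0.12 (SE 0.08), Dnajb6 -0.07 (SE 0.05), Dnajc5 -0.05 (SE 0.05) and Dnajc6 -0.06 (SE 0.07).

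The folding rings differed little. The 8 TRiC genes had log2 fold changes from -0.03 to 0.11, of which Cct2 (0.11, SE 0.05, edgeR unadjusted p = 0.049) was the highest. In mitochondria, Hspd1 (HSP60) gave 0.07 (SE 0.05), Hspe1 (HSP10) -0.10 (SE 0.07) and Hspa9 (mortalin) 0.04 (SE 0.04). Hspd1 and Hspe1 share the promoter shown above and overlap by 112 bases, and reads there were counted on both. The 4 members with the 3-unit heat shock element ranged from -0.10 to 0.07, and the 3 with the ER stress element from -0.21 to -0.06.

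The second comparison asks what CP2 changed in APP/PS1 mice. No member passed an adjusted p of 0.05 with edgeR's quasi-likelihood test (0 of 74), DESeq2 also called 0 (0.14% of all genes), and 1 gene in 16407 (0.00609%) passed in the whole table. At an unadjusted p under 0.05, 8 members (10.8%) passed against 6.55% of all genes. Of these, 2 (2.70%) were higher with CP2, against 2.88% of all genes, and 6 (8.11%) lower, against 3.66%. All 8 had an adjusted p of 0.74. The median log2 fold change was -0.02 over members and -0.0060 over all genes, and for 62 of 74 members the 95% interval lay within 0.3 of 0. With the ribosomal RNA share as a covariate 0 members passed unadjusted (4.43% of all genes). Without mouse 23 or without mouse 24 there were 5 (6.76%, against 6.48% and 3.9% of all genes), and without mouse 25 there were 4 (5.41%, against 4.23%). This comparison shares its 5 vehicle-treated mice with the first, so their values are not independent.

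The 2 members higher with CP2 were Hspa4l and Hspa12a. Hspa4l measured 201, 219, 245, 232 and 225 CPM with vehicle and 243, 241, 250.6, 271 and 263 CPM with CP2. Only mouse 18 reached into the CP2 range, and the log2 fold change was 0.17 (SE 0.06, edgeR unadjusted p = 0.0089), or 0.14 without mouse 16. Hspa12a gave 0.19 (SE 0.08, edgeR unadjusted p = 0.040), with CP2-treated mice at 243, 239, 280, 299 and 259 CPM, and 0.14 without mouse 16 (edgeR unadjusted p = 0.083). Dnajc27 gave 0.14 (SE 0.06, edgeR unadjusted p = 0.053), and 0.10 without mouse 16. Hspa1b split the treated mice, with 7.52 and 8.33 CPM in mice 21 and 22 and 13.3, 14.0 and 13.0 CPM in mice 23, 24 and 25. Its log2 fold change of 0.35 had a 95% interval from -0.06 to 0.77.

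The 6 members lower with CP2 were Cct3, Cct2, Bag1, Dnajc8, Dnajc9 and Hspb11, with log2 fold changes from -0.29 to -0.10. Dnajc9, a histone chaperone, was the 1 member whose groups did not overlap (1.35%, against 1.18% of all genes, 0.561% higher and 0.616% lower), at 22.7, 22.9, 24.9, 23.1 and 21.9 CPM with vehicle and 21.5, 20.8, 21.8, 20.9 and 21.5 CPM with CP2. That gave a log2 fold change of -0.12 (SE 0.04, edgeR unadjusted p = 0.020), with the nearest mice at 21.93 and 21.84 CPM. Hspb11, counted as a small HSP by symbol but known as a subunit of intraflagellar transport, gave -0.29 (SE 0.11) at 3.67 to 5.35 CPM in treated mice. Bag1, which exchanges nucleotide on HSP70, gave -0.12 (SE 0.05), and Dnajc8, a J protein of the spliceosome, -0.11 (SE 0.05).

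All 8 TRiC genes had a lower point estimate with CP2, from -0.14 to -0.03 with a median of -0.06, and none passed the adjusted threshold. Of all 16407 genes tested, 8617 were lower. Cct3 measured 111, 122, 115, 107 and 105 CPM with vehicle and 105, 102, 100.3, 106 and 98.3 CPM with CP2, a log2 fold change of -0.14 (SE 0.05, edgeR unadjusted p = 0.015). Cct2 gave -0.10 (SE 0.04, edgeR unadjusted p = 0.044) and Tcp1 -0.11 (SE 0.06). The direction of the 8 held under each alternative run, but the median was -0.03 without mouse 17, and the subunits act as 1 complex and were measured in the same mice, so they are not 8 separate observations. Summed over the family, vehicle-treated mice held 1040 to 1198 CPM and CP2-treated mice 1006 to 1096 CPM, so the groups overlapped.

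Most members fixed by role had point estimates close to 0 with CP2. Hsp90ab1 gave -0.01 (95% interval -0.12 to 0.09), Hsp90aa1 -0.02 (interval -0.14 to 0.11), Hsp90b1 -0.02 (interval -0.12 to 0.07), Hspa8 -0.07 (interval -0.20 to 0.07) and Hspa5 0.02 (interval -0.11 to 0.15). In mitochondria, where CP2 acts, Hspd1 gave -0.01 (interval -0.11 to 0.09), Hspe1 0.0011 (interval -0.16 to 0.16) and Hspa9 -0.03 (interval -0.12 to 0.06). Among heat shock genes, Dnajb1 gave 0.03 (SE 0.06), Hsph1 -0.03 (SE 0.06), Hspb1 -0.08 (SE 0.14) and Hspa1a 0.13 (SE 0.09). The widest intervals were those of Hspb8 (-0.16, SE 0.24), Hspa1b and Bag3 (-0.22, SE 0.17). Single mice moved these values: without mouse 16, the lowest vehicle-treated mouse for both, Hspb8 gave -0.33 (edgeR unadjusted p = 0.077) and Bag3 -0.33 (edgeR unadjusted p = 0.040, adjusted p = 0.51). Without mouse 18, the highest, they gave -0.02 and -0.07, and these are the ends of the range over each mouse left out.

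The third comparison sets CP2-treated APP/PS1 mice against NTG mice, so genotype and treatment differ together and cannot be told apart. Here 3 of 74 members (4.05%) passed an adjusted p of 0.05 with edgeR's quasi-likelihood test, against 6.02% of all 16416 genes (4.56% higher and 1.46% lower): Hspa12b and Hspb6 rose and Dnajc12 fell. At an unadjusted p under 0.05, 9 members (12.2%) passed against 20.2% of all genes, 3 higher (background 11.6%) and 6 lower (background 8.59%). The groups did not overlap for 5 members (6.76%, against 9.73% of all genes, 6.43% higher and 3.3% lower): Hspa12b, Hspb6 and Dnajc13 higher, and Dnajc12 and Hspa8 lower. The median log2 fold change was -0.04 over members and -0.0015 over all genes.

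Hspa12b (chr2:131127280-131146321 in mm10) measured 9.18, 8.71, 8.66, 10.1 and 10.1 CPM in CP2-treated mice, all above the highest NTG mouse at 7.59 CPM. The log2 fold change was 0.41 (SE 0.08, edgeR adjusted p = 0.011), or 1.33-fold. Hspb6 (chr7:30552178-30555443) measured 6.84, 6.87, 5.59, 5.40 and 5.24 CPM, above the highest NTG mouse at 4.65 CPM, a log2 fold change of 0.54 (SE 0.12, edgeR adjusted p = 0.026). It overlaps Proser3 by 119 bases and Lin37 by 3 bases. The values of vehicle-treated APP/PS1 mice overlapped those of CP2-treated mice, and CP2 against vehicle gave 0.08 (95% interval -0.13 to 0.29) for Hspa12b and 0.01 (interval -0.30 to 0.32) for Hspb6. Endothelial markers summed to 291 to 337 CPM in CP2-treated mice, with 9 of 10 higher than in NTG mice and 4 past the adjusted threshold. Mural cell markers summed to 236 to 287 CPM, with 10 of 10 higher and 5 past it, and their part in both results was not tested.

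Dnajc12 (chr10:63382443-63408840) measured 12.02, 12.7, 13.3, 11.5 and 11.9 CPM in CP2-treated mice, all below the lowest NTG mouse at 14.2 CPM. The log2 fold change was -0.39 (SE 0.09, edgeR adjusted p = 0.021), and CP2 against vehicle gave -0.02 (95% interval -0.23 to 0.19). The calls of Dnajc12 and Hspb6 were lost with all 3 groups in 1 fit (edgeR adjusted p = 0.054 and 0.059), and that of Hspb6 with the ribosomal RNA share as a covariate (edgeR adjusted p = 0.051). Leaving out 1 mouse also ended the call of Hspb6 for mice 8, 9, 10, 21 and 22 (edgeR adjusted p up to 0.081) and of Dnajc12 for mice 8, 21 and 24 (up to 0.068), while Hspa12b stayed past the threshold in each such fit (at most 0.042). The number of members called was 1 without mouse 8 or without mouse 21 (3.78% and 3.75% of all genes) and 5 without mouse 7 (6.35%). Hspa8 measured 488, 486, 507, 516 and 477 CPM, all below the lowest NTG mouse at 528 CPM, with a log2 fold change of -0.22 (SE 0.06, edgeR adjusted p = 0.063). It passed with DESeq2 (adjusted p = 0.0071) and with limma-voom (adjusted p = 0.035). With 1 mouse left out, its edgeR adjusted p ran from 0.030 to 0.17. Dnajc13 gave 0.16 (SE 0.05, edgeR adjusted p = 0.093), and passed with DESeq2 (adjusted p = 0.044).

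**Figure D3:**
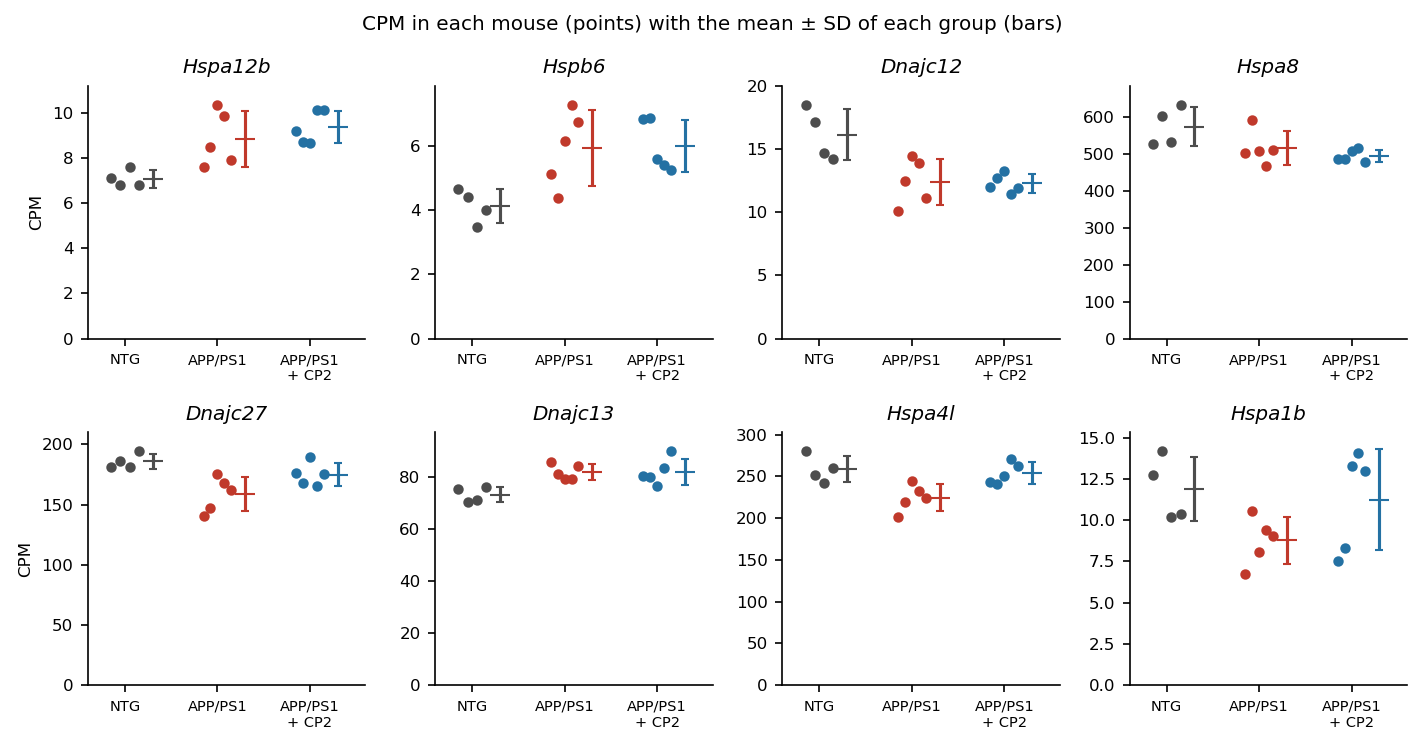
CPM of 8 members in each mouse (points) with the mean ± SD of each group, on axes that start at 0. Hspa12b and Hspb6 are higher and Dnajc12 and Hspa8 lower in all CP2-treated APP/PS1 mice than in any NTG mouse, and the vehicle-treated mice overlap with NTG mice for each of these 4.

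Other genes of the same pathways gave few calls. Of 21 genes of the heat shock response list, members included, 8 lay higher in APP/PS1 mice, 13 lay lower and 0 passed the adjusted threshold. At an edgeR unadjusted p under 0.05, 3 of the 21 passed, all lower. Of all genes tested, 18.7% passed unadjusted, 10.6% higher and 8.05% lower. Hsf1, the factor that drives this response, gave -0.08 (SE 0.07) in APP/PS1 against NTG mice and 0.10 (SE 0.04, edgeR unadjusted p = 0.023, adjusted p = 0.74) with CP2. Of 24 genes of the ER chaperones and unfolded protein response, 10 lay above and 14 below the NTG level in APP/PS1 mice, and 0 passed the adjusted threshold. Unadjusted, Dnajc10, Pdia4 and P4hb passed as higher and Hspa5 and Pdia6 as lower. Of 13 mitochondrial chaperones, 4 were higher and 9 lower, and of 8 synaptic and clathrin chaperones 2 were higher and 6 lower, with 0 passing in either list. Cryab, the lens and glial small HSP that the symbol rule leaves out, gave 0.09 (SE 0.10).

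Of 29 tested co-chaperones outside the symbol rule, 1 passed in APP/PS1 against NTG mice. That was Clu, the secreted chaperone clusterin, which measured 622, 697, 668 and 688 CPM in NTG mice and 739, 862, 823, 1024 and 895 CPM in APP/PS1 mice, and rose by a log2 fold change of 0.38 (SE 0.09, edgeR adjusted p = 0.033). Astrocytes make much of the brain's clusterin, and all 6 tested reactive astrocyte markers rose in the same mice, Gfap by 2.30 (SE 0.25) on the log2 scale. Their part in the Clu value was not tested. Of 8 genes of the prefoldin list, 0 passed in APP/PS1 against NTG mice. The list holds Pfdn1, Pfdn2, Vbp1, Pfdn4, Pfdn5 and Pfdn6, whose complex hands actin and tubulin to TRiC, and the related Pdrg1 and Uri1. In CP2-treated APP/PS1 against NTG mice all 8 genes of that list had a lower point estimate, with a median of -0.12. Of all 16416 genes tested, 8300 were lower. Pfdn6 fell by 0.18 (SE 0.04, edgeR adjusted p = 0.034). With CP2 against vehicle, 0 genes of these lists passed the adjusted threshold.

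A few members were highest in the same mice as a marker list, in mice of each group. The same 6 mice, 7, 17, 18, 19, 21 and 22, from all 3 groups, held the highest values of Hspb8 (16.9 to 24.1 CPM, against 8.96 to 16.5 CPM in the other 8), of Bag3 (12.3 to 17.98 against 8.85 to 10.5 CPM) and of the sum of 10 oligodendrocyte markers (6348 to 8017 against 5030 to 6034 CPM). Hspb8 and Bag3 proteins form a complex that routes clients to autophagy. Another 4 mice, 8, 9, 16 and 25, also from all 3 groups, held the highest values of Dnajb5, a class B J protein, at 92.7 to 101 CPM against 54.8 to 82.4 CPM in the other 10. The same 4 held the highest sums of 10 immediate early genes, which neuronal activity induces, at 654 to 825 CPM against 123 to 325 CPM. Hspb8, Bag3, Dnajb5 and both marker sums were picked for this after values were seen, so the shared mice are a description only. The part of tissue makeup or activity in these values was not tested.

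**Figure D4:**
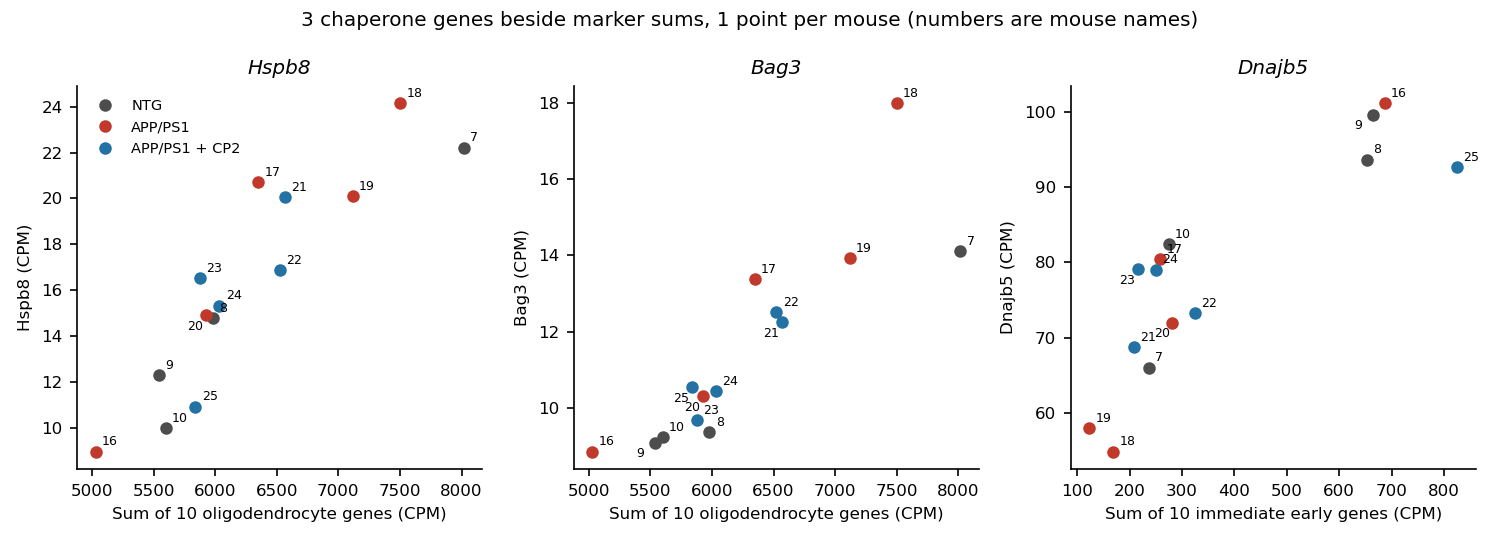
Hspb8 and Bag3 CPM against the sum of 10 oligodendrocyte markers, and Dnajb5 CPM against the sum of 10 immediate early genes, with 1 point per mouse (14 mice, all from the same libraries on both axes). The highest points of each plot come from mice of all 3 groups.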

How the data were processed

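Brain RNA of 14 mice was sequenced as TruSeq libraries with paired ends. The authors aligned reads with TopHat to mm10 in their MAP-RSeq workflow and counted reads per Ensembl gene by featureCounts (Subread), once for each gene overlapped, and they deposited raw read counts without normalization. The deposited RPKM values, computed by the authors per length and library size, were used only to compare levels between genes. The strand setting and tool versions are not given in the sources used here. All 14 count and RPKM columns matched a sample, and 0 did not.

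Counts of all genes were fitted with edgeR 4.0.16 in R 4.3.3 (glmQLFit and glmQLFTest, TMM factors, group as the only term), on the 2 groups compared alone. Genes with over 1 CPM (DESeq2's robust scaling) in every mouse of at least 1 group were tested, with Benjamini-Hochberg adjustment over all of them. Standard errors and 95% intervals were derived from the F statistics. CPM values use TMM factors over all 14 mice. DESeq2 1.42.0, limma-voom 3.58.1 with quality weights, other scalings and filters, 1 fit of all 3 groups and fits without each mouse were alternatives. The scripts were tested on simulated data with log2 fold changes of 1 and 2 in size, larger than those of any tested member. The 26 pairs of replicates all differed beyond counting noise (chi-square per degree of freedom at least 10.5), so each mouse was counted once.

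The members and gene lists were chosen with earlier results of these data known. Named genes were those with an adjusted p under 0.05 in any comparison, the 10 with the smallest p in each of the first 2 comparisons and 5 in the third, 21 genes fixed by role, and the 5 with the highest RPKM in NTG mice. Promoter letters were taken from RefSeq on GRCm38.p6 and searched with Python 3.11.15, and figures were drawn with matplotlib 3.10.9. Of the 84 members, 15 were not matched to a promoter in that table.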

Additional observations from a re-analysis of the deposited data

Results flagged for a closer look

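Values of the 36 named members were tested for a mouse far from the others in each group of 4 or 5 mice, by Dixon's ratio of the gap to the range, in 108 groups. Chance flags about 1 in 20 such groups, and 2 were flagged here. Bag3, a BAG protein induced by stress, was at 14.1 CPM in NTG mouse 7, where the nearest of the other NTG mice was at 9.36 CPM. Without mouse 7 its log2 fold change in APP/PS1 against NTG mice was 0.48, against 0.30 with it and 0.15 without mouse 18. Hsp90ab1 was at 1283 CPM in NTG mouse 10, with the nearest NTG mouse at 1199 CPM. Without mouse 10 its log2 fold change was 0.09, against 0.05 with it.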

How the results depend on the processing

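In APP/PS1 against NTG mice, 0 of 74 members were called at an adjusted p under 0.05 in the reported fit (932 over all genes, 5.68%). There were 8 with DESeq2 (1667, 10.2%) and 1 with upper-quartile factors (918, 5.59%). All 3 groups in one fit gave 4 (1297, 7.9%) and limma-voom gave 2 (1563, 9.52%). With the ribosomal RNA share as covariate, chosen after seeing the data, there was 1, Hspb6 (720, 4.39%). Unadjusted calls were 11 (18.7% of all genes), and 4 with that covariate (14.8%). Leaving out each mouse gave 0 to 1 adjusted calls (3.51 to 8.99% of all genes) and 9 to 12 unadjusted calls (15.2 to 22.2%). With CP2 against vehicle, adjusted calls were 0 in each alternative (at most 0.14% of all genes). Unadjusted calls were 8 (6.55% of all genes), 0 with the covariate (4.43%) and 4 to 9 without 1 mouse (3.9 to 9.54%). In CP2-treated APP/PS1 against NTG mice, adjusted calls were 3 (989 over all genes, 6.02%), with 5 by DESeq2 (1670, 10.2%). All 3 groups in one fit gave 1 (703, 4.28%), the covariate 2 (752, 4.58%) and leaving out 1 mouse 1 to 5 (3.47 to 6.8%). The causes were not tested. Of 1153 alternative values of named genes, 1075 kept direction and side of the threshold, 22 passed it newly, 11 (Hspb6 and Dnajc12, CP2-treated against NTG) lost it and 45 changed sign.

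Changed signs came from log2 fold changes of at most 0.08 in size. In APP/PS1 against NTG mice, Dnajb1 was 0.0091 with upper-quartile factors and Hsph1 -0.0013 with limma-voom, with the covariate Cct6a was -0.010, Hsph1 -0.011 and Tcp1 -0.028, and leaving out each mouse gave -0.045 to 0.033 for Dnajb1 and -0.026 to 0.043 for Cct6a. With CP2, Hspe1 was -0.0030 with upper-quartile factors and -0.0067 with limma-voom, and Dnajb6 9.3e-05 with 3 groups, and with the covariate Dnajb2 was -0.0078, Hspe1 -0.036 and Hsph1 0.023. Leaving out each mouse gave -0.043 to 0.055 for Hspe1, -0.035 to 0.012 for Dnajb6, -0.013 to 0.059 for Dnajb1, -0.0033 to 0.085 for Dnajb2, -0.0015 to 0.074 for Dnajc6, -0.029 to 0.0054 for Dnaja1, -0.054 to 0.0078 for Hsp90aa1, -0.041 to 0.0083 for Hsp90ab1, -0.040 to 0.0037 for Hsp90b1, -0.0074 to 0.065 for Hspa5, -0.16 to 0.021 for Hspb1, -0.036 to 0.0060 for Hspd1 and -0.069 to 0.0081 for Hsph1.

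No paired analysis was possible because the groups share no replicate numbers. The 10 members under the filter on low values were not tested.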
